A study of Mus musculus with 15 samples.

Results

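The 8 genes described here encode enzymes, and 1 helper protein, that make or inactivate prostaglandins and leukotrienes. They are the cyclooxygenases Ptgs1 and Ptgs2, the terminal prostaglandin synthases Ptges, Ptgis and Ptgds, the prostaglandin-inactivating dehydrogenase Hpgd, the leukotriene enzyme Alox5 and its partner Alox5ap. They were picked by gene symbol from their place in the pathway, with earlier results of these data known. All 8 were among the 30281 named genes of each library, and all 8 passed the filter on low counts that left 17136 genes for testing. The libraries are mRNA sequencing of mouse skin in a wound time course, with 3 libraries at each of day 0, 1, 3, 5 and 7, or 15 in all. Every library came from C57BL/6 skin that had been cleared of muscle and fat, and the labels give wounding as the stress for all of them, the day 0 group included. No other treatment, allele, sex or age is given in the labels, and nothing says whether day 0 skin was uninjured or taken at the moment of wounding. Separate mice are not stated as the source of the 3 replicates either. P-values therefore measure the spread among replicates that may be technical.

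Prostaglandins and leukotrienes are short-lived lipid signals made from arachidonic acid, which phospholipases A2 release from membranes. The cyclooxygenases turn arachidonic acid into prostaglandin H2, and terminal synthases turn that into prostaglandin E2, prostacyclin or prostaglandin D2, which in skin are known for widening vessels, sensitising nerves and acting on keratinocytes. Alox5, with arachidonic acid presented to it by Alox5ap, makes leukotriene A4, the parent of the neutrophil attractant leukotriene B4 and of the cysteinyl leukotrienes.

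Library totals ran from 38062562 to 60450396 estimated counts, and the common biological coefficient of variation was 30.9%. Mitochondrially encoded genes took 5.29% to 9.44% of counts, with every library of days 5 and 7 above every library of days 0 and 3. Markers of basal and suprabasal keratinocytes, fibroblasts and endothelium were above 0 in every library, and so were 5 skeletal muscle markers, whose summed level was between 2001 and 9133 CPM. CPM are counts relative to the library total, scaled by trimmed means of M-values (TMM). Of the libraries, 2 stood apart by hair follicle markers: these summed to 13271 CPM in day 5 replicate 2 and 16449 CPM in day 7 replicate 3, against 15.6 to 1523 CPM in the other 13. Day 0 replicate 1 stood apart from the other day 0 libraries in Ptgs2, described next. The median log2 difference over all tested genes was between -0.01 and 0.03 in each comparison of 2 times.

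Ptgs2, Ptges and Alox5ap had their highest mean at day 1 and Alox5 at day 0, and all 4 had their lowest mean at day 7. Hpgd had its lowest mean at day 1. From day 1 to day 7, Ptgs2, Ptges, Alox5 and Alox5ap fell and Hpgd rose; Ptgs1, Ptgis and Ptgds did not pass the test. That is 5 of 8 genes called by edgeR's quasi-likelihood test at a Benjamini-Hochberg adjusted p under 0.05, where 14.3% of all tested genes were called, 8.59% as lower and 5.75% as higher. A test of any change over the 5 times called the same 5 genes, against a background of 13.9%. The median log2 difference of the 8 genes between day 7 and day 1 was -0.96, against 0.03 for all genes. In bulk tissue, fewer cells of a type and less RNA per cell cannot be told apart.

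**Figure D1:**
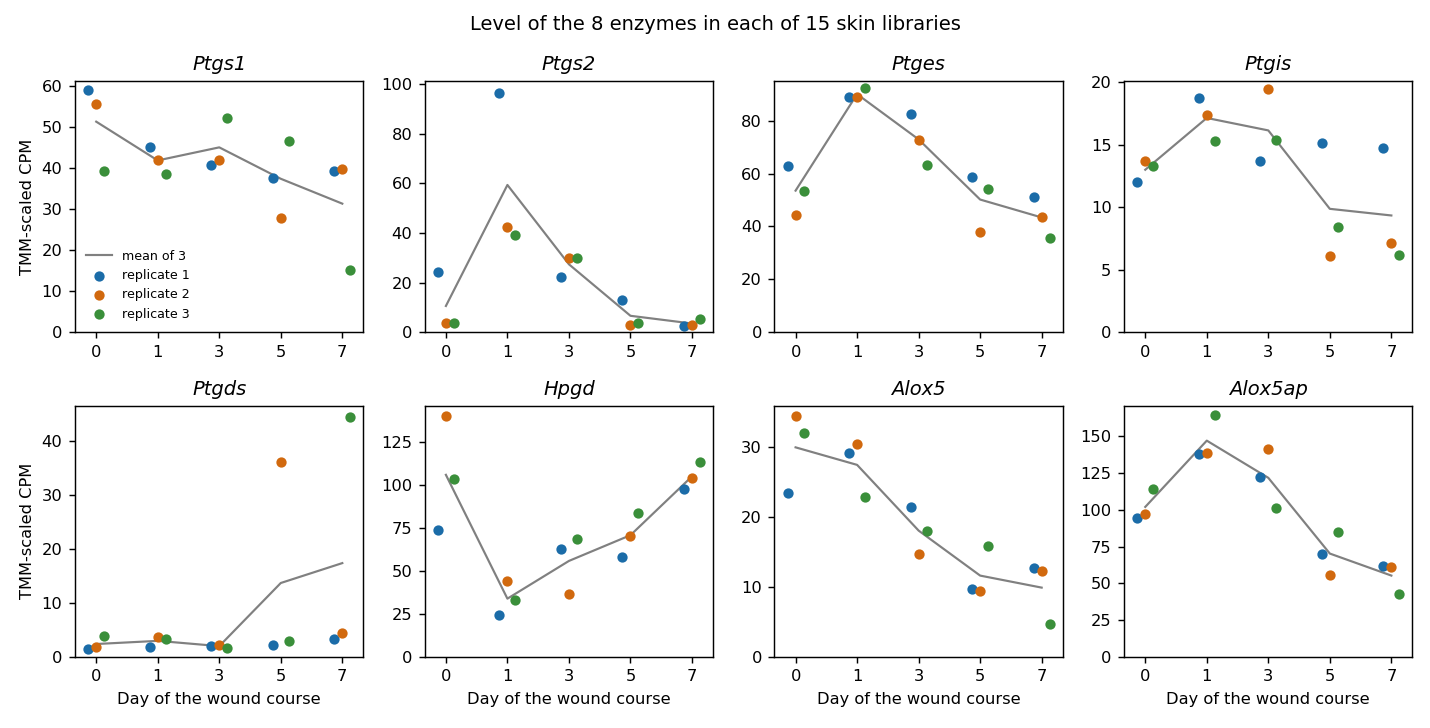
CPM of the 8 genes in each of the 15 libraries by day, with points for the replicates and lines for the mean. Ptgs2 has its highest library, 96.6 CPM, at day 1, Hpgd has its lowest, 24.4 CPM, at the same time, and Ptgds is high only in day 5 replicate 2 and day 7 replicate 3.

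The change was widest in Ptgs2, the inducible cyclooxygenase. Ptgs2 stood at 24.2, 3.72 and 3.75 CPM in day 0 replicates 1, 2 and 3, and at 96.6, 42.5 and 39.0 CPM at day 1. It was at 22.2, 29.9 and 29.98 CPM at day 3, 13.2, 2.96 and 3.66 CPM at day 5, and 2.42, 2.82 and 5.22 CPM at day 7. All day 1 libraries were above all day 0 libraries, and such a gap in either direction was seen in 37.8% of all tested genes. Day 0 replicate 1 lay far above the other libraries of its time. The mean went from 59.4 ± 32.3 (SD, n = 3) at day 1 to 3.49 ± 1.52 at day 7, a 17.0-fold fall (4.09 on the log2 scale, SE 0.84, edgeR adjusted p = 0.00846). That call held in each of 12 alternative analyses, with adjusted p between 5.21e-06 and 0.0425. Between day 0 and day 1 the log2 difference was 2.49 (SE 0.78, edgeR adjusted p = 0.0682), which missed the threshold. Without day 0 replicate 1 it was 3.99 with an adjusted p of 0.00501, and over all alternatives the adjusted p ran from 0.00501 to 0.789. Without the same library the day 3 difference from day 0 was 2.87 (adjusted p = 0.0382), against 1.37 with it (adjusted p = 0.407; 0.0382 to 1.00 over alternatives). The test of any change over the 5 times gave an edgeR adjusted p of 0.0189 for Ptgs2, and 0.0621 without day 1 replicate 1, the highest of its range over alternatives, which began at 1.47e-05.

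The sum of neutrophil markers, like Ptgs2, was highest in a day 1 library, and the order of libraries differed within days 1 and 3. Day 1 replicate 3 and day 3 replicate 1 had the highest sums of their times, 1303 and 936 CPM, and the lowest Ptgs2. The summed level of 10 such markers was 62.1 to 205 CPM at day 0, 827 to 1303 CPM at day 1, 537 to 936 CPM at day 3, 143 to 375 CPM at day 5 and 48.8 to 256 CPM at day 7. At day 1 most of this sum came from S100a8 and S100a9, with means of 257 and 567 CPM. Of the 10, 7 were called lower at day 7 than at day 1, and up to 2 of them (among Ngp, Ly6g and Ltf) were at 0 in a library. The sum of 4 platelet markers was 105 to 123 CPM at day 0, 166 to 203 CPM at day 1 and 65.0 to 75.3 CPM at day 7, and 2 of the 3 tested were called lower at day 7 than at day 1. The part of these cells in the Ptgs2 result was not tested.

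The promoter of Ptgs2 is shown because it is the gene with the widest range here and its start region is the textbook case of a promoter read by several stress-responsive factors. The sequence is from RefSeq on GRCm38.p6, the 250 bases before the annotated start, at chr1:150099781-150100030 on the plus strand, followed by a 30-base site that begins at the start, at chr1:150100031-150100060. Capitals mark matches on either strand to GGGCGG (a GC box), TTGCNNAA (the C/EBP pattern), CGTCA (the core of a cAMP response element) and CACGTG (an E-box), the last 2 of which overlap in the second sequence.
Ptgs2 before start: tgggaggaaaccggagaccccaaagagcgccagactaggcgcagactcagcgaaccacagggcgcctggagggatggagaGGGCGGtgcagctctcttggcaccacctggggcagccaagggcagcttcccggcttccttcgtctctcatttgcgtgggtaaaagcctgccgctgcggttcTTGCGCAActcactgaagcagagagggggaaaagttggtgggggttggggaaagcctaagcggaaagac
Ptgs2 after start: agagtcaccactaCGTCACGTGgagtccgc
Each pattern occurs 1 time in the 300-base window of Ptgs2. Among 32544 distinct promoter windows of that length, the GC box was in 35.9%, the cAMP response element core in 20.9%, the C/EBP pattern in 10.8% and the E-box in 7.17%. These are letter matches placed by the annotated start, and no binding was measured. The start of transcription was not measured either, so these counts cannot tell whether the second sequence is transcribed.

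Ptgs1, the cyclooxygenase that most tissues express without a stimulus, varied far less. It stood at 59.1, 55.6 and 39.4 CPM at day 0, 45.1, 42.0 and 38.6 CPM at day 1 and 40.9, 42.0 and 52.3 CPM at day 3. At day 5 it was 37.7, 27.9 and 46.7 CPM and at day 7 it was 39.2, 39.8 and 15.1 CPM. The libraries of neighbouring times overlapped, and the lowest value was that of day 7 replicate 3, 1 of the 2 hair-rich libraries. The edgeR adjusted p was 0.366 for any change over time and 0.37 for day 7 against day 1 (log2 difference -0.42, SE 0.30). The highest and lowest means, at day 0 and day 7, differed 1.64-fold.

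The ratio of Ptgs2 to Ptgs1 counts within a library does not depend on library scaling, though its size depends on transcript length, so only its course over time is read. The ratio was 0.410, 0.0669 and 0.0952 at day 0, and 2.14, 1.01 and 1.01 at day 1. It was 0.544, 0.711 and 0.573 at day 3, 0.349, 0.106 and 0.0784 at day 5, and 0.0617, 0.0709 and 0.347 at day 7. Every day 1 library and every day 3 library was above all libraries of days 0, 5 and 7.

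**Figure D2:**
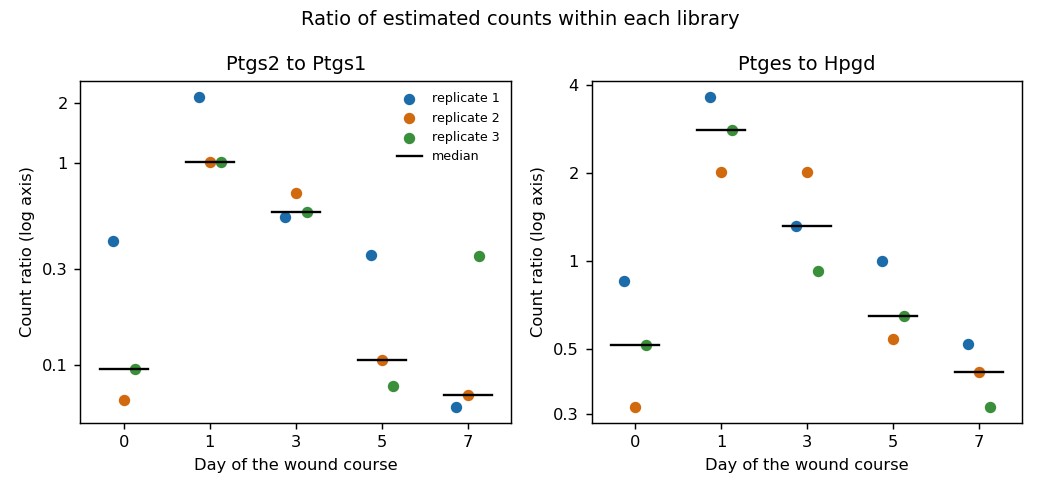
Count ratios within each library on log axes, Ptgs2 to Ptgs1 and Ptges to Hpgd, by day, with a point for each replicate and a bar for the median. The median ratio of Ptgs2 to Ptgs1 is 1.01 at day 1 and 0.0709 at day 7, and that of Ptges to Hpgd is 2.81 at day 1 and 0.418 at day 7.

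Ptges, the inducible microsomal synthase that works with Ptgs2 to make prostaglandin E2, had its highest mean at day 1. Its levels were 62.9, 44.3 and 53.4 CPM at day 0, 88.9, 89.0 and 92.2 CPM at day 1 and 82.7, 72.7 and 63.3 CPM at day 3. They were 58.5, 37.9 and 54.1 CPM at day 5 and 51.0, 43.4 and 35.8 CPM at day 7. The 3 day 1 libraries lay close together and above every library of the other times. Between day 0 and day 1, 37.8% of all tested genes had such a gap in either direction. Ptges fell 2.08-fold from day 1 to day 7 (1.05 on the log2 scale, SE 0.18, edgeR adjusted p = 0.00312), and its adjusted p stayed between 1.45e-06 and 0.0173 in 12 alternatives. It rose from day 0 to day 1 by 0.75 on the log2 scale (SE 0.18, edgeR adjusted p = 0.0292). Ptges and Hpgd were the 2 members called in that comparison, where 7.58% of all genes were called, 4.22% as higher and 3.36% as lower. This day 1 call of Ptges ended when any library other than day 0 replicate 1 was left out, at adjusted p of 0.144 and 0.0905 for replicates 2 and 3 of day 0, and of 0.0777, 0.0747 and 0.0732 for those of day 1. Over all alternatives it ran from 0.00169 to 0.671.

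Hpgd, which oxidises prostaglandins to inactive forms, moved in the opposite direction. It stood at 73.7, 140 and 103 CPM at day 0 and at 24.4, 44.3 and 32.8 CPM at day 1. It was 62.5, 36.2 and 68.4 CPM at day 3, 58.3, 70.1 and 83.7 CPM at day 5, and 97.8, 104 and 113 CPM at day 7. Every day 1 library was below every day 0 library, a gap seen in either direction in 37.8% of all tested genes. The day 7 libraries were within the day 0 range. Hpgd fell by 1.65 on the log2 scale from day 0 to day 1 (SE 0.29, edgeR adjusted p = 0.0113), and rose 3.10-fold from day 1 to day 7 (log2 difference 1.63, SE 0.29, edgeR adjusted p = 0.0035). The day 1 to day 7 rise was called in all 12 alternatives, with adjusted p of 7.46e-07 to 0.0191. The fall from day 0 missed the threshold without day 0 replicate 2 (adjusted p = 0.0684) and without day 1 replicate 1 (0.0534), within a range of 2.06e-06 to 0.567 over alternatives. Day 7 against day 0 gave a log2 difference of -0.01 (SE 0.28, edgeR adjusted p = 0.98). Fibroblast markers were also lower at day 1: 5 of 11 were called lower and 1 higher than at day 0, none was at 0, and their sum was 60820 to 72162 CPM at day 0, 25014 to 52530 CPM at day 1 and 28751 to 60522 CPM at day 7. Dendritic and Langerhans cell markers summed to 2212 to 3818 CPM at day 0 and 853 to 1223 CPM at day 1. Of them, 3 of 8 were called lower. T and NK cell markers summed to 33.0 to 68.4 and 15.4 to 22.3 CPM, and 4 of 7 were called lower. Neither list had a call as higher. Of sebaceous gland markers, 1 of 5 was called lower and 0 higher, with sums of 320 to 424 CPM at day 0 and 233 to 287 CPM at day 1. Lists with calls as higher alone were neutrophil (7 of 10), mast cell (2 of 9) and platelet (2 of 3 tested). The part of any of these cells in the Hpgd result was not tested.

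The ratio of Ptges to Hpgd counts was 0.853, 0.316 and 0.516 at day 0, 3.65, 2.01 and 2.81 at day 1, and 1.32, 2.01 and 0.926 at day 3. It was 1.00, 0.541 and 0.646 at day 5 and 0.522, 0.418 and 0.317 at day 7. The day 1 libraries were all above those of days 0, 5 and 7, and the lowest of them was close to the highest day 3 library.

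The promoters of Ptges and Hpgd are shown side by side because the 2 genes moved in opposite directions at day 1. Both are RefSeq sequence on GRCm38.p6, the 250 bases before the start, for Ptges at chr2:30903298-30903547 on the minus strand and for Hpgd at chr8:56294302-56294551 on the plus strand. Capitals mark the GC box on either strand, which reads CCGCCC on the other.
Ptges before start: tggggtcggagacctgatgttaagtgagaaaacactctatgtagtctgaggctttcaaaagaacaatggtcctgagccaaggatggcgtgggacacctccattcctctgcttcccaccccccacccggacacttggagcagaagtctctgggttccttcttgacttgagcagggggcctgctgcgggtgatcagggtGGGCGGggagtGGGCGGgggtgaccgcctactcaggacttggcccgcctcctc
Hpgd before start: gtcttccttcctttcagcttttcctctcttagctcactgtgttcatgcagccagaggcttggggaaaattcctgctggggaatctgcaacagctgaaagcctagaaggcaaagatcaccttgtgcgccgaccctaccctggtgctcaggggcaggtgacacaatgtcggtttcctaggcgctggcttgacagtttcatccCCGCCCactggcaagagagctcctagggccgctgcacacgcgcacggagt
Ptges holds 2 GC boxes and Hpgd holds 1, and neither window holds the other 3 patterns searched. Of the other members with a promoter in the table, Alox5 held 1 GC box, and Ptgs1 and Ptgds held none of the 4 patterns. The table matched 6 of the 8 members.

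Ptgis, the prostacyclin synthase of vessel walls and fibroblasts, was spread widely within days 5 and 7. It stood at 12.0, 13.7 and 13.3 CPM at day 0, 18.7, 17.4 and 15.3 CPM at day 1 and 13.7, 19.4 and 15.3 CPM at day 3. It was 15.1, 6.06 and 8.43 CPM at day 5 and 14.7, 7.14 and 6.15 CPM at day 7. The day 1 libraries were all above the day 0 libraries, a gap seen in either direction in 37.8% of all tested genes. Replicate 1 was the highest at both late times. Ptgis did not pass the test for any change over time (edgeR adjusted p = 0.178), for day 1 against day 0 (log2 difference 0.40, SE 0.34, adjusted p = 0.478) or for day 7 against day 1 (-0.88, SE 0.34, adjusted p = 0.104). Without day 7 replicate 1 the last difference was -1.37 and the adjusted p 0.0175, and the test of any change gave 0.0423. Over alternatives these adjusted p ran from 0.0175 to 0.254 and from 0.0423 to 0.309.

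Ptgds, the lipocalin-type prostaglandin D2 synthase, was low except in the 2 hair-rich libraries. It stood at 1.47, 1.77 and 3.85 CPM at day 0, 1.84, 3.72 and 3.30 CPM at day 1 and 2.00, 2.27 and 1.65 CPM at day 3. It was 2.11, 36.0 and 2.87 CPM at day 5 and 3.24, 4.45 and 44.4 CPM at day 7. The day 5 and day 7 means, 13.7 ± 19.4 and 17.4 ± 23.4 CPM (SD, n = 3), each rest on 1 library, and all other libraries were between 1.47 and 4.45 CPM. Day 7 against day 0 gave a log2 difference of 2.87 (SE 1.16, edgeR adjusted p = 0.132), and 0.70 (adjusted p = 0.346) without both hair-rich libraries. The test of any change over time gave an edgeR adjusted p of 0.114, and 0.0415 without day 5 replicate 2, in a range of 0.0415 to 0.347. The sum of 4 melanocyte markers was high in the same 2 libraries, at 380 CPM in day 5 replicate 2 and 481 CPM in day 7 replicate 3, against 17.0 to 61.1 CPM in the other 13. The part of hair or pigment cells in the Ptgds values was not tested.

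**Figure D3:**
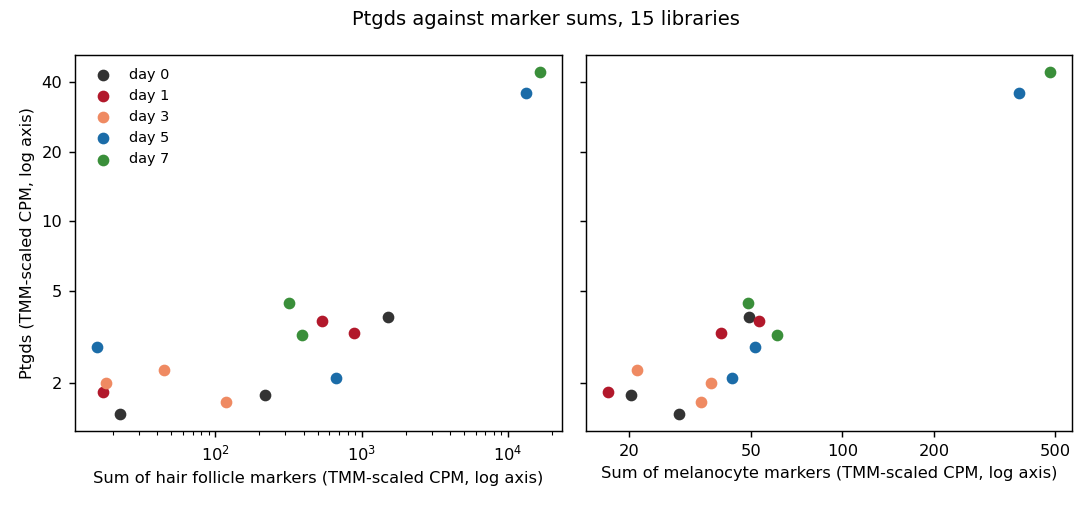
Ptgds (CPM, log axis) in the 15 libraries against the summed hair follicle markers (left) and melanocyte markers (right), both in CPM on log axes, coloured by day. Day 5 replicate 2 and day 7 replicate 3, at 36.0 and 44.4 CPM of Ptgds, lie apart from the other 13 on every axis.

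The hair-rich libraries were at the ends of their time's range for most members. Day 5 replicate 2 had the lowest value of its time for 6 of 8 members (Ptgs1, Ptgs2, Ptges, Ptgis, Alox5 and Alox5ap), and day 7 replicate 3 for 5 (Ptgs1, Ptges, Ptgis, Alox5 and Alox5ap). Day 5 replicate 2 was the highest of its time for Ptgds, and day 7 replicate 3 for 3 members, Ptgds, Ptgs2 and Hpgd. The 5 calls between day 7 and day 1 also stood without both libraries, with log2 differences of -4.50 for Ptgs2, -0.93 for Ptges, 1.58 for Hpgd, -1.14 for Alox5 and -1.26 for Alox5ap.

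Alox5, the 5-lipoxygenase of myeloid cells, was lower at the late times. It stood at 23.4, 34.5 and 32.1 CPM at day 0, 29.2, 30.4 and 22.8 CPM at day 1 and 21.4, 14.8 and 18.0 CPM at day 3. It was 9.64, 9.38 and 15.8 CPM at day 5 and 12.7, 12.3 and 4.76 CPM at day 7. Days 0 and 1 overlapped, and the mean was 11.6 CPM at day 5 and 9.90 CPM at day 7. Alox5 fell 2.78-fold from day 1 to day 7 (1.47 on the log2 scale, SE 0.33, edgeR adjusted p = 0.0124), with adjusted p of 0.000174 to 0.063 over alternatives, the highest with only the 2 times in the fit. From day 0 to day 7 it fell by 1.60 on the log2 scale (SE 0.33, edgeR adjusted p = 0.0191). That call ended without day 0 replicate 2 (adjusted p = 0.0647) or day 0 replicate 3 (0.0577), in a range of 9.08e-05 to 0.246. Day 5 against day 0 gave -1.37 (SE 0.33, edgeR adjusted p = 0.0731), and without day 0 replicate 1 an adjusted p of 0.0461, in a range of 0.00265 to 0.665.

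Alox5ap, the membrane protein that hands arachidonic acid to Alox5, peaked at day 1 before it fell. It stood at 94.7, 97.2 and 114 CPM at day 0, 138, 138 and 165 CPM at day 1 and 122, 141 and 101 CPM at day 3. It was 69.9, 55.6 and 85.1 CPM at day 5 and 62.1, 61.0 and 42.7 CPM at day 7. All day 1 libraries were above all day 0 libraries, a gap seen in either direction in 37.8% of all tested genes. Alox5ap fell 2.66-fold from day 1 to day 7 (1.41 on the log2 scale, SE 0.19, edgeR adjusted p = 0.000795; 3.59e-11 to 0.00708 over alternatives). From day 0 to day 7 it fell by 0.88 (SE 0.18, edgeR adjusted p = 0.0191). Leaving out day 0 replicate 2, day 0 replicate 3 or day 7 replicate 3 ended that call, at adjusted p of 0.0513, 0.0668 and 0.0621, in a range of 0.000238 to 0.211. The day 1 difference from day 0 was 0.53 (SE 0.18) and missed the threshold (edgeR adjusted p = 0.09). It passed with DESeq2 (adjusted p = 0.0391) and with only the 2 times in the fit (0.0429), in a range of 0.0391 to 0.657. Alox5 and Alox5ap were the 2 members called at day 7 against day 0, both as lower, where 7.05% of all genes were called and 3.94% were called lower.

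The ratio of Alox5ap to Alox5 counts was 4.05, 2.82 and 3.55 at day 0 and 4.73, 4.55 and 7.22 at day 1. It was 5.72, 9.58 and 5.62 at day 3, 7.25, 5.93 and 5.37 at day 5, and 4.90, 4.96 and 8.97 at day 7. Every library after day 0 had a higher ratio than every day 0 library, so Alox5 counts were lower relative to those of Alox5ap throughout the later times.

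Monocyte and macrophage markers, like the leukotriene genes, were lower at days 5 and 7 than before. Their sum, over 11 genes, was 2649 to 3847 CPM at day 0, 2548 to 3209 CPM at day 1, 3112 to 3299 CPM at day 3, 1360 to 2541 CPM at day 5 and 1231 to 1948 CPM at day 7, with none at 0. The day 1 sums overlapped those of day 0, and the day 3 sums were within the day 0 range. Compared with day 0, the mean of Alox5ap was higher at day 1 and that of Alox5 lower at day 3. A sum does not show the course of each marker. Of the 11, 9 were called lower at day 7 than at day 0 and 6 lower than at day 1. Mast cell markers, 9 genes with none at 0, summed to 246 to 307 CPM at day 0, 374 to 471 CPM at day 1, 319 to 507 CPM at day 3, 211 to 354 CPM at day 5 and 219 to 269 CPM at day 7, and 2 were called lower at day 7 than at day 1. The part of these cells in the Alox5 and Alox5ap results was not tested.

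In the other comparisons no member was called by edgeR. For day 3 against day 0 the count was 0 (background 0.788%), with 3 members at an unadjusted p under 0.05 and 1 called by DESeq2. For day 5 against day 0 it was also 0 (background 0.502%), with 3 members under 0.05 unadjusted and 1 by DESeq2. Between neighbouring times, day 3 against day 1 called 0 members (background 0.00584%), with 1 under 0.05 unadjusted and 0 by DESeq2. Day 5 against day 3 called 0 (background 0.0233%), with 4 under 0.05 unadjusted and 1 by DESeq2. Day 7 against day 5 called 0 (background 0.00584%), with 0 under 0.05 unadjusted and 0 by DESeq2. The comparisons with day 0 share their day 0 libraries, so their members' values are not independent of each other.

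**Figure D4:**
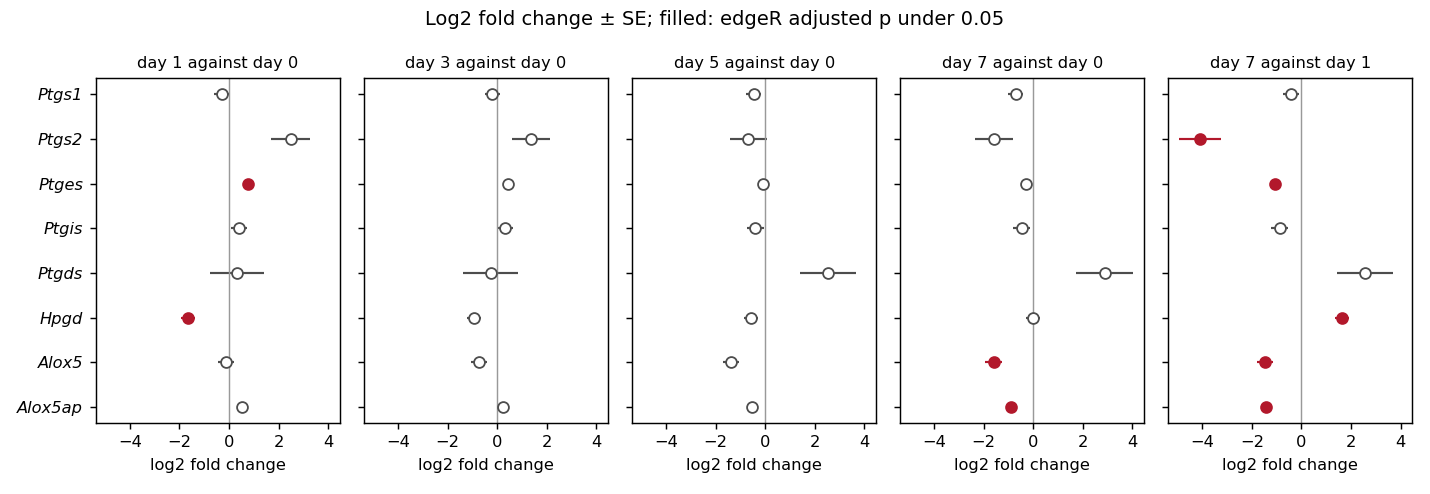
Log2 differences of the 8 genes, with standard errors, in the comparisons of day 1, 3, 5 and 7 with day 0 and of day 7 with day 1. Between day 7 and day 1 Ptgs2 is at -4.09 and Hpgd at 1.63, on opposite sides of 0.

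The rest of the pathway was read from 7 lists of 60 genes, all 60 of them in the files and 57 tested. At day 1 against day 0, edgeR called 5 higher and 3 lower, 14% of the 57 against 7.58% of all genes. At day 7 against day 1 it called 8 lower and none higher, 14% against 14.3% of all genes, so the share in either direction was at the background. Of all genes, 8.59% were called lower and 5.75% higher. Any change over time was called for 11, or 19.3% against 13.9%. The median log2 difference of the 57 at day 7 against day 1 was -0.06, against 0.03 for all genes. Against day 0, edgeR called 0 at day 3, where 0.788% of all genes were called (10 at an unadjusted p under 0.05, 6 by DESeq2). It called 1 as lower at day 5, 1.75% against 0.502% of all genes. At day 7 it called 1 as higher and 3 as lower, 7.02% against 7.05% of all genes. Leaving out 1 library in turn gave 0 to 14 called at day 1 against day 0, 0 to 6 at day 7 against day 0, 7 to 12 at day 7 against day 1 and 7 to 15 for any change. Calls over all tested genes ran, in the same order, from 33 to 2411, 279 to 2074, 1134 to 2319 and 1174 to 2973. Of the 57, DESeq2 called 13 at day 1 against day 0, 10 at day 7 against day 0, 15 at day 7 against day 1 and 21 for any change.

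Of the phospholipases A2, which release arachidonic acid, 14 of 16 were tested and 0 were called by edgeR in any comparison. By comparison, 0 to 4 of them had an unadjusted p under 0.05, and DESeq2 called 0 to 3. Pla2g7, a secreted enzyme that hydrolyses platelet-activating factor, came closest in the test of any change (edgeR adjusted p = 0.056). Its means were 95.6 CPM at day 1 and 127 CPM at day 3 (edgeR adjusted p = 0.0637 for day 3 against day 0, log2 difference 1.08, SE 0.25). Pla2g4a was 31.0 to 33.1 CPM at day 0 and 39.0 to 44.6 CPM at day 1. DESeq2 called that difference (log2 difference 0.40, adjusted p = 0.0139, against 0.0576 by edgeR).

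Among the 9 other prostanoid synthases, Ptges3, a co-chaperone that also makes prostaglandin E2, rose and Akr1c18 fell. Ptges3 was 105 to 116 CPM at day 0, 156 to 171 CPM at day 1 and 147 to 197 CPM at day 7. Every day 1 library was above every day 0 library, a gap seen in either direction in 37.8% of all tested genes. Its log2 difference from day 0 was 0.59 at day 1 (SE 0.14, edgeR adjusted p = 0.0293) and 0.62 at day 7 (SE 0.14, adjusted p = 0.0252). Leaving out day 0 replicate 2 or 3, or day 7 replicate 2 or 3, ended the day 7 call of Ptges3, at adjusted p up to 0.0954, in a range of 0.00115 to 0.304 over alternatives. The day 1 call ended without any 1 library other than day 0 replicate 1, at adjusted p up to 0.126, in a range of 0.00232 to 0.67. Akr1c18, an aldo-keto reductase, was 27.6 to 41.3 CPM at day 0 and 9.63 to 21.3 CPM at day 1 (log2 difference -1.15, SE 0.30, edgeR adjusted p = 0.0378). Dropping replicate 2 or 3 of day 0, or replicate 1 or 2 of day 1, ended that call, at adjusted p up to 0.133, in a range of 0.00277 to 0.691.

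Of the 4 genes for prostaglandin transport and further inactivation, Slco2a1, the transporter that takes prostaglandins into cells for breakdown, fell late. It was 64.5 to 99.9 CPM at day 1 and 19.5 to 26.6 CPM at day 7 (log2 difference -1.73, SE 0.30, edgeR adjusted p = 0.00321, and 4.95e-07 to 0.021 over alternatives). Like Ptgs2, it was higher in day 0 replicate 1, at 76.6 CPM, than in the other 2 day 0 libraries, at 33.1 and 30.8 CPM. Abcc4, an exporter of prostaglandins, was 37.7 to 62.9 CPM at day 0 and 13.8 to 33.0 CPM at day 7 and was called by neither edgeR nor DESeq2.

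Of the 9 prostanoid receptors, Ptgir, the prostacyclin receptor, and Ptgfr, the prostaglandin F receptor, rose at day 1 and fell by day 7, while edgeR called none of the 4 prostaglandin E receptors Ptger1, Ptger2, Ptger3 and Ptger4. DESeq2 called Ptger3 lower at day 3 and at day 5 than at day 0 (log2 differences -1.08 and -1.13, adjusted p = 0.0226 and 0.0127, against 0.129 and 0.0983 by edgeR), and Tbxa2r, the thromboxane receptor, lower at day 1 (-0.90, 0.0246, edgeR 0.0743). Ptgir was 7.82 to 9.49 CPM at day 0, 13.02 to 17.9 CPM at day 1 and 3.31 to 6.06 CPM at day 7. Its log2 difference was 0.86 at day 1 against day 0 (SE 0.24, edgeR adjusted p = 0.0475) and -1.65 at day 7 against day 1 (SE 0.25, adjusted p = 0.00158). Ptgfr was 27.1 to 37.1 CPM at day 0, 43.2 to 63.2 CPM at day 1 and 22.9 to 29.6 CPM at day 7. Its log2 difference was 0.75 at day 1 against day 0 (SE 0.21, edgeR adjusted p = 0.0475) and -0.99 at day 7 against day 1 (SE 0.21, adjusted p = 0.00898). The day 7 against day 1 calls of both held in all 12 alternatives. Both day 1 calls against day 0 ended without any 1 library other than day 0 replicate 1, with adjusted p of 0.00578 to 0.72 for Ptgir and 0.00811 to 0.769 for Ptgfr over alternatives. Ptgs1 and Ptgs2 make the precursor of the ligands of both receptors. The highest libraries of Ptgs2, Ptgir and Ptgfr were at day 1, and the highest mean of Ptgs1 was at day 0. A link between these genes was not tested.

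Among 8 genes of leukotriene synthesis and breakdown, Ggt5 and Dpep1 moved in opposite directions at day 1. Ggt5, which cleaves leukotriene C4 to leukotriene D4, was 16.4 to 18.5 CPM at day 0, 35.8 to 40.5 CPM at day 1 and 9.36 to 13.5 CPM at day 7. It rose by 1.10 on the log2 scale at day 1 (SE 0.26, edgeR adjusted p = 0.0276) and fell by 1.80 from day 1 to day 7 (SE 0.26, adjusted p = 0.00147; 2.94e-09 to 0.0112 over alternatives). The day 1 call of Ggt5 ended when any library but day 0 replicate 1 was left out, in a range of 0.00109 to 0.612. Dpep1, the dipeptidase that makes leukotriene E4, was 116, 202 and 223 CPM at day 0 and 54.0, 58.6 and 54.1 CPM at day 1. It fell by 1.70 on the log2 scale (SE 0.28, edgeR adjusted p = 0.00999), and missed the threshold without day 0 replicate 2 (adjusted p = 0.0581), in a range of 3.4e-07 to 0.557. Dpep2, a related dipeptidase, was highest at day 3, at 21.8 to 26.6 CPM, and changed over the 5 times (edgeR adjusted p = 0.0205), but not without day 3 replicate 2 (adjusted p = 0.0545). Over alternatives its adjusted p ran from 3.2e-05 to 0.0545. Cyp4f18, which inactivates leukotriene B4, was 14.6 to 20.8 CPM at day 1 and 6.09 to 10.1 CPM at day 7 (log2 difference -1.14, SE 0.33, edgeR adjusted p = 0.0359). The Cyp4f18 call ended when any of the 6 libraries but day 7 replicate 1 was left out, at adjusted p up to 0.117, in a range of 0.0053 to 0.117. Lta4h and Ltc4s, which make leukotriene B4 and leukotriene C4, were not called by edgeR. DESeq2 called Ltc4s lower at day 5 and day 7 than at day 0 (log2 differences -0.97 and -1.05, adjusted p = 0.0361 and 0.0111, against 0.131 and 0.0594 by edgeR) and Lta4h higher at day 7 than at day 1 (0.21, 0.0342, edgeR 0.102).

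Of 7 tested leukotriene and resolution receptors, 3 fell from day 1 to day 7 by edgeR's test (5 by DESeq2): Ltb4r1, Fpr2 and Cysltr1. Ltb4r1, the high-affinity leukotriene B4 receptor of neutrophils, was 11.8, 5.74 and 5.62 CPM at day 0, 18.9 to 22.2 CPM at day 1 and 4.53 to 5.70 CPM at day 7. It rose by 1.38 on the log2 scale at day 1 (SE 0.26, edgeR adjusted p = 0.0148) and fell by 1.95 from day 1 to day 7 (SE 0.26, adjusted p = 0.000965; 5.77e-11 to 0.00826 over alternatives). Without day 0 replicate 2, day 0 replicate 3 or day 1 replicate 1 the day 1 call of Ltb4r1 was lost, at adjusted p up to 0.0871, in a range of 1.87e-05 to 0.588. Fpr2, a receptor of lipoxin A4 and formyl peptides, was 15.7 to 22.5 CPM at day 1 and 1.70 to 3.67 CPM at day 7 (log2 difference -3.03, SE 0.43, edgeR adjusted p = 0.00116; 1.35e-11 to 0.00994 over alternatives). It was 7.25, 5.44 and 17.8 CPM at day 0, and fell by 2.06 on the log2 scale from day 0 to day 7 (SE 0.41, edgeR adjusted p = 0.0176), a call lost without day 0 replicate 3 or day 7 replicate 2, at adjusted p up to 0.0566, in a range of 3.36e-05 to 0.156. Cysltr1, the cysteinyl leukotriene receptor, was 32.3 to 38.2 CPM at day 0 and 13.9 to 22.4 CPM at day 7, a fall of 0.91 on the log2 scale (SE 0.18, edgeR adjusted p = 0.0162). That call ended without day 0 replicate 2 or 3, at adjusted p up to 0.0566, in a range of 8.26e-05 to 0.209. Cysltr1 was also the pathway gene called lower at day 5 than at day 0 (log2 difference -0.98, SE 0.18, edgeR adjusted p = 0.0457). Of the 6 libraries, leaving out any but day 0 replicate 1 ended this call, at adjusted p up to 0.143, in a range of 4.86e-05 to 0.45. Cmklr1, a receptor of chemerin and resolvin E1, was 49.9 to 60.04 CPM at day 0 and 18.8 to 37.4 CPM at day 7, a fall of 0.94 on the log2 scale (SE 0.23, edgeR adjusted p = 0.0331). Leaving out any of the 6 libraries but day 7 replicate 1 ended the Cmklr1 call, at adjusted p up to 0.0987, in a range of 0.00233 to 0.245. The neutrophil and macrophage sums given above were also lower at day 7 than at day 1, and the part of these cells in the receptor results was not tested.

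**Figure D5:**
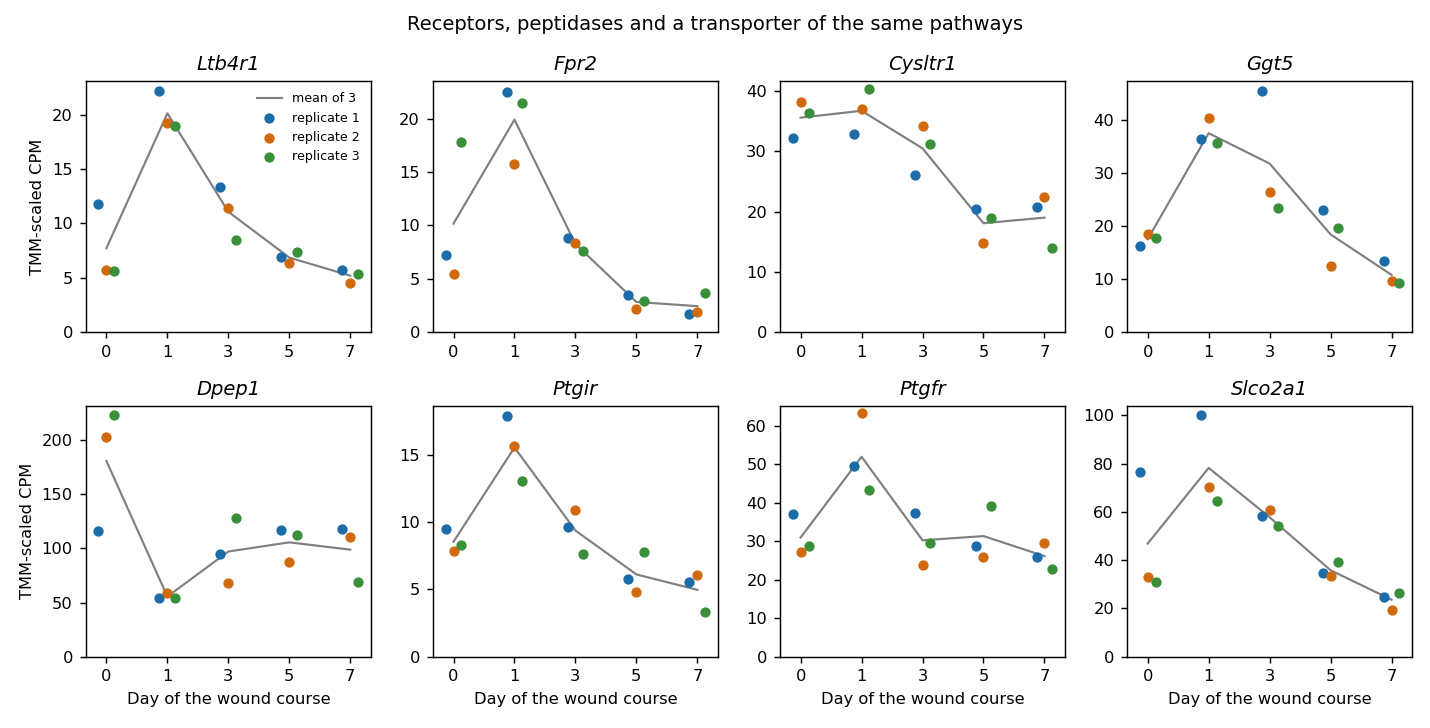
CPM of 8 pathway genes outside the 8 enzymes in each of the 15 libraries by day, with points for the replicates and lines for the mean of 3. Ltb4r1 and Ggt5 have day 1 libraries at 18.9 to 22.2 and 35.8 to 40.5 CPM, above all of day 0, and Dpep1 has day 1 libraries at 54.0 to 58.6 CPM, below all of day 0. Between day 0 and day 1, 37.8% of all tested genes had such a gap in either direction.

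Of 6 other lipoxygenases, edgeR called 1, Aloxe3, an epidermal enzyme of the skin barrier. DESeq2 also called Alox15 at day 1 against day 0 (adjusted p = 0.0196, edgeR 0.0765) and Alox12 at day 7 against day 1 (0.0295, edgeR 0.0748). Aloxe3 was 17.8 to 22.6 CPM at day 0, 11.7 to 13.3 CPM at day 1 and 13.2 to 21.2 CPM at day 7. It fell by 0.73 on the log2 scale at day 1 by edgeR's test (SE 0.20, edgeR adjusted p = 0.0475), and missed the threshold when any 1 of the 6 libraries was left out, with adjusted p of 0.0608 to 0.187 and a range of 0.00749 to 0.628 over all alternatives.

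The genes whose levels were most like those of each member over the 15 libraries were ranked by Pearson correlation of log2 CPM, as a description. Ptgs2 was most like the cytokine gene Il1b (r = 0.99), then Osm (0.98) and Cxcl2 (0.98), and r was 0.99, 0.98 and 0.97 without the 2 libraries farthest from the median. Il1b was 86.1, 13.8 and 12.9 CPM at day 0, 235 to 448 CPM at day 1 and 4.69 to 17.5 CPM at day 7, so its day 0 replicate 1 was high as in Ptgs2. Alox5ap was most like Hcls1 (0.98), Apbb1ip (0.97) and Ripor2 (0.97), and Ptges was most like H6pd (0.98), Arhgdib (0.97) and Litaf (0.96). Hpgd was most like Omd (0.95), Rdm1 (0.95) and Eef1akmt3 (0.93), and Alox5 was most like Rbpj (0.96), Cass4 (0.96) and Sqor (0.95). Ptgs1 was most like Maob (0.96), Abcc4 (0.96) and Egf (0.95), and Ptgis was most like Cpne2 (0.93), Selenon (0.93) and Dgkg (0.93). Without the 2 hair-rich libraries r was 0.84, 0.92 and 0.79 for the genes like Ptgs1, 0.86, 0.84 and 0.84 for those like Ptgis, and 0.91 for each of those like Alox5. For Ptgds the closest were Slc24a5 (0.98), Cdc14a (0.98) and Proser2 (0.97), and r was 0.87, 0.73 and 0.69 without the same libraries. These libraries share their times, so the correlations hold the common course of the wound.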

How the data were processed

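The authors deposited estimated counts, 1 per gene symbol and library. Per the submitters' processing notes the tool was kallisto 0.43. Which transcript index, annotation, genome build and strand setting it ran with is not given in the sources used here. The counts were whole numbers as deposited, so rounding changed none. Each file held 30307 rows, of which 26 bore calendar dates in place of symbols (0.155% to 0.179% of counts) and were left out.

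One edgeR 4.0.16 quasi-likelihood model with robust dispersion (limma 3.58.1, R 4.3.3) was fitted over all 15 libraries with the 5 times as groups, after edgeR's expression filter (minimum count 10) and TMM scaling. It gave 8 contrasts and an F test over the 5 times. P-values are two-sided for contrasts, and were Benjamini-Hochberg adjusted across the 17136 tested genes and called under 0.05. The script was tested on simulated data with a smaller spread than these libraries and no library set apart, so that test bears on the code alone. Standard errors came from the log2 difference and its F statistic. CPM are counts relative to the scaled library size and do not correct for transcript length, so levels are not compared between genes.

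Members, pathway lists and markers were chosen with earlier results of these data known. Pathway genes are named where called by the F test or against day 0, or, for a list with none, by the smallest p of the F test; genes called only between other times or by DESeq2 alone, and genes named as not called, were named after their values were seen. The most similar genes are the 3 with the highest Pearson correlation of log2 CPM (prior count 2). Alternatives were DESeq2 1.42.0, DESeq2-type size factors, no filter, a fit with only the times compared, a replicate block, and leaving out libraries.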

Additional observations from a re-analysis of the deposited data

How the results depend on the processing

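The 5 members called for day 7 against day 1 stayed between 5 and 6 when 1 library was left out, and the 5 called for any change over time between 4 and 6. For day 1 against day 0 the count of members called, 2, was 4 by DESeq2, 0 without day 0 replicates 2 and 3 together, and 0 to 3 when 1 library was left out. For day 7 against day 0 the count of 2 was 0 with only the 2 times compared in the fit, 0 without day 0 replicates 2 and 3 together, and 0 to 2 when 1 library was left out. For day 3 against day 0 the count of 0 was 1 by DESeq2 and 0 to 1 when 1 library was left out, and for day 5 against day 0 it was 1 by DESeq2, 1 without day 5 replicate 2 and day 7 replicate 3 together, and 0 to 1 when 1 library was left out. For day 5 against day 3 DESeq2 called 1. Calls over all tested genes also shifted when 1 library was left out. They ran from 33 to 2411 for day 1 against day 0 and from 279 to 2074 for day 7 against day 0. For day 3 and day 5 against day 0 they ran from 0 to 629 and from 0 to 495. The cause of these shifts was not tested; leaving out both day 0 libraries leaves 1 sample, which is then assumed to vary like the other groups. No called member or pathway gene changed direction under any alternative run.

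With the replicate number as a block, 3 members were called for day 1 against day 0, Ptgs2 being the one added (adjusted p = 0.0414), 2 for day 7 against day 0, 5 for day 7 against day 1 and 5 for any change. The labels give these numbers no meaning, and over 30 pairs of same-numbered libraries the correlation of deviations ran from -0.73 to 0.49 (median 0.08), with 4 of 15 libraries most like their own number. Over 60 pairs of differently numbered libraries it ran from -0.62 to 0.78 (median -0.02). Counting error is small at this depth, and the number of libraries sets the precision.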
